A study of Mus musculus with 4 samples.

Results

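The Ly6 genes encode small surface proteins that share a disulphide-bonded fold and are held in the outer membrane by a glycosylphosphatidylinositol (GPI) anchor. Ly6a encodes Sca-1, the antigen used to sort mouse haematopoietic stem cells, which T cells also carry and which interferons and T cell activation are known to raise. Ly6c1 and Ly6c2 encode the Ly6C antigens of monocytes and of some T cells, and Ly6e (also called Sca-2 or TSA-1) encodes an antigen of thymocytes and many other cells. Ly6d marks early B cell progenitors and keratinocytes, Ly6k has a known role in sperm, and Ly6i and Ly6f are close relatives of Ly6a. These 8 genes were taken by symbol, through their Ensembl IDs, from the 47729 genes of the count matrix, and all 8 were found. They had been chosen with earlier results of this comparison in view, so their differences between the groups are a description and carry no test.

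The libraries came from wild-type C57BL/6 CD4 T cells of the spleen that were stimulated through CD3 and CD28 and driven towards induced regulatory T (iTreg) cells. All cultures held TGF-β at 5 ng/mL, IL-2 at 100 U/mL, and anti-IL-4 and anti-IFN-γ at 5 µg/mL each. Ferrous sulfate (FeSO4, 50 µM) or PBS (Mock) was present for 4 days, with 2 libraries per group. The methods describe 2 pairs of samples from 2 independent experiments, but the labels do not tie the replicate numbers to them. The p-values weigh the difference between the groups against the spread between these libraries only. In such bulk libraries, more cells of a type and more RNA per cell cannot be told apart.

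Between 35183187 and 40859178 reads per library lay in genes, and the upper limit set by a count of 0 (3 reads) lay at 0.0717 to 0.0876 CPM, the count scaled by library size. CD4 T cell markers summed to 4126 to 4528 CPM, the 4 NK cell markers were at 0 in every library, and Foxp3 had 587 and 693 CPM in the Mock libraries against 376 and 472 CPM with FeSO4. Mock replicate 1 held reads of genes that the other libraries nearly lacked, among them 164 reads of the myeloid lysozyme gene Lyz2 against 8, 0 and 0. Results that rest on this library are given with and without it.

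The 8 genes lie in one cluster of 510.2 kb on chromosome 15, from Ly6d at chr15:74762056-74763567 to Ly6f at chr15:75268372-75272237 (GRCm38). Between them are Ly6k at chr15:74796874-74799968, Ly6e at chr15:74955025-74959904, Ly6i at chr15:74979534-74983434, Ly6a at chr15:74994877-74998031, Ly6c1 at chr15:75044018-75048920 and Ly6c2 at chr15:75108161-75112066. Ly6e and Ly6f are on the plus strand and the other 6 genes on the minus strand. Since only uniquely aligned reads entered the counts, the likeness of the copies bears on the values of the genes that share stretches. The first 120 coding bases of the 5 most similar genes are shown with capitals where a base differs from Ly6c1 at the aligned place (GENCODE M1 transcripts, NCBIM37):
Ly6c1: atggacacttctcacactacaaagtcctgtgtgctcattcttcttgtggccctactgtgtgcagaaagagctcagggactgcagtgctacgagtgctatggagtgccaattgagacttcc
Ly6c2: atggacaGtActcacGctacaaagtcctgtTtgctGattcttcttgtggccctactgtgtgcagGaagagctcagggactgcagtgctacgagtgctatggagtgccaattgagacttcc
Ly6a: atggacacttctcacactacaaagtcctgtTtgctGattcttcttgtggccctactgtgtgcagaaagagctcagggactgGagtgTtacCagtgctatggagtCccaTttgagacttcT
Ly6i: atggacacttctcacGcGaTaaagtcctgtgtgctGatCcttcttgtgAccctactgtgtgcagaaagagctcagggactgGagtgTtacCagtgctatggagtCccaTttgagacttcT
Ly6f: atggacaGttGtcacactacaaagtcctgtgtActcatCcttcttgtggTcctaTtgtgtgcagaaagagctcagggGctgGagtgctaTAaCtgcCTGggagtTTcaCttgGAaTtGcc
Ly6c2 differed from Ly6c1 at 6 of these bases, Ly6a at 8, Ly6i at 12 and Ly6f at 21.

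Over their whole coding sequence of 396 bases, Ly6c1 and Ly6c2 differed at 9 bases, were 97.7% identical and shared an unbroken run of 188 bases. Ly6a was 86.4% identical to Ly6i, 84.4% to Ly6f, 82.0% to Ly6c1 and 81.7% to Ly6c2. Ly6e, Ly6d and Ly6k were at most 53.8% identical to any other of the 8 genes. The map of identities shows Ly6a, Ly6i, Ly6f, Ly6c1 and Ly6c2 as one group of copies and the other 3 genes as distant from it.

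**Figure D1:**
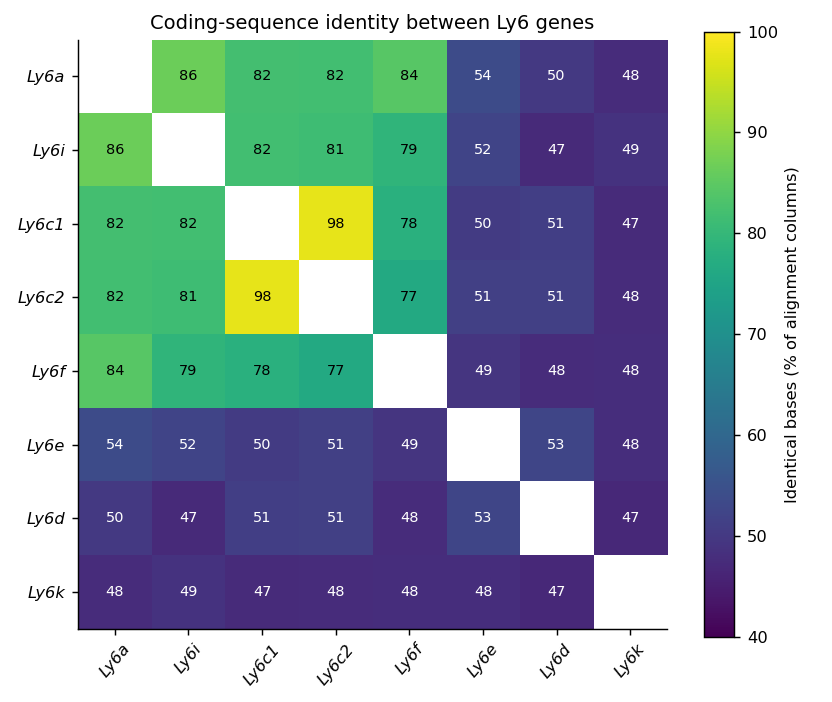
Identity of the coding sequences of the 8 Ly6 genes, in percent of alignment columns (both axes list the genes; numbers are rounded). The Ly6c1 and Ly6c2 pair stands highest at 97.7%, and Ly6e, Ly6d and Ly6k reach at most 53.8% with any other gene.

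How much of each transcript could be told apart was measured with stretches of 50 and 100 bases matched to the NCBIM37 genome. Of the 50-base stretches, 25.4% in Ly6c1, 27.3% in Ly6c2, 11.4% in Ly6a, 10.5% in Ly6i and 2.29% in Ly6f occurred at a further place in the genome, in each case on chromosome 15. Of the 100-base stretches, 6.07% in Ly6c1 and 6.46% in Ly6c2 did so, and 0 in the other 6 genes. Matched to each other as spliced transcripts, which hold stretches across exon junctions, Ly6c1 and Ly6c2 shared more, with 31.9% and 34.1% of their 50-base stretches and 15.4% and 16.4% of their 100-base stretches found in the other copy or, for Ly6c2 at 50 bases, in Ly6a. Ly6e, Ly6d and Ly6k had no repeated stretch of either length. The read length is not given in the sources used here, and reads with more than 1 alignment made up 4.27 to 4.62% of a library. The counts of Ly6c1 and Ly6c2, and to a lesser extent those of Ly6a and Ly6i, are therefore uncertain where reads fell in such stretches. The 2 measures do not show how many reads were lost from any gene.

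Upstream of 1 annotated start of each, Ly6c1 and Ly6c2 shared shorter runs than in their coding sequence. These starts lie inside the gene positions given above, which reach chr15:75048920 and chr15:75112066, so the windows partly overlap the genes. The 150 bases before 1 annotated start of each are shown because the copies had different levels across the libraries, with capitals for the longest run that both windows hold (RefSeq, GRCm38.p6, minus strand, chr15:75048838-75048987 and chr15:75111972-75112121):
Ly6c1: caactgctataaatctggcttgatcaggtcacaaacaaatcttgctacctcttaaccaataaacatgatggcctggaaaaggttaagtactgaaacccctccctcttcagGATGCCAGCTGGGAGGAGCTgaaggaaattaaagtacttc
Ly6c2: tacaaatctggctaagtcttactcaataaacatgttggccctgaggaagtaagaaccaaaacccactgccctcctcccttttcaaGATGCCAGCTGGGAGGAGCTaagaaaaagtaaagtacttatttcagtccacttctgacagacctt
The shared run is 20 bases long. It lies 40 to 21 bases before this start of Ly6c1 and 65 to 46 bases before that of Ly6c2. In both genes the run falls within the gene positions given above. Windows of 300 bases around the start were searched on both strands for TTCNNNGAA, letters of STAT sites, for an ISRE-like motif of IRF factors, and for CACGTG and ACGTG, letters of an E-box and of the HIF core, of which the former holds the latter. These motifs occur in 8.30%, 3.44%, 7.15% and 19.6% of 32851 such windows of 300 bases. The 5 windows of Ly6c1, Ly6c2 and Ly6f held none of them, which says only that these letters are not in these windows.

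Ly6a had the highest level of the cluster after Ly6e. It was counted 2322 and 2364 times in the Mock libraries and 8595 and 8524 times in the FeSO4 libraries, at 57.2 and 56.5 CPM against 251 and 230 CPM. Both FeSO4 libraries lay far above both Mock libraries, while the libraries of a group stood close together. The Mock mean was 56.9 ± 0.494 CPM and the FeSO4 mean 241 ± 14.6 CPM (SD, n = 2 each). The fitted log2 fold change was 2.08 ± 0.07 (SE), or 4.23-fold, and the same-numbered libraries differed 4.38-fold and 4.07-fold. Ordered by log2 fold change, Ly6a stood in place 53 of 13732 tested genes.

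Ly6e, the most abundant of the 8 genes, had 42709 and 41458 reads in Mock and 45022 and 47558 reads in FeSO4. Scaled to library size this was 1053 and 991 CPM in Mock against 1314 and 1285 CPM in FeSO4. The groups did not overlap, and the difference was much smaller than that of Ly6a, with a log2 fold change of 0.35 ± 0.06 (SE), or 1.27-fold. The same-numbered libraries differed 1.25-fold and 1.30-fold. By mean level, Ly6e stood in place 79 of the tested genes and Ly6a in place 1500.

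Ly6c2 had a low level in all libraries. It had 17 and 32 reads in Mock and 86 and 111 reads in FeSO4, at 0.419 and 0.765 CPM against 2.51 and 3.0 CPM. Both FeSO4 libraries were above both Mock libraries. The log2 fold change of 2.21 ± 0.39 (SE) was close to that of Ly6a, with an error several times larger, and the same-numbered libraries differed 5.99-fold and 3.92-fold.

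Ly6c1, its near-identical copy, had 88 and 22 reads in Mock and 44 and 42 reads in FeSO4, at 2.17 and 0.526 CPM against 1.28 and 1.13 CPM. The FeSO4 libraries lay between the Mock libraries, and the log2 fold change was -0.15 ± 0.50 (SE). Without Mock replicate 1 the sign turned, to a log2 fold change of 1.18, and without Mock replicate 2 it was -0.84. No direction can be given for Ly6c1 from these libraries.

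Of the reads of both Ly6C genes together, Ly6c2 took 16.2% (95% exact binomial interval 9.72 to 24.7) in Mock replicate 1 and 59.3% (45.03 to 72.4) in Mock replicate 2. Its share was 66.2% (57.3 to 74.2) in FeSO4 replicate 1 and 72.5% (64.8 to 79.4) in FeSO4 replicate 2. Mock replicate 1 stood apart from the other 3 libraries, and the intervals of Mock replicate 2 and of both FeSO4 libraries overlapped. The summed level was 2.59 and 1.29 CPM in Mock against 3.79 and 4.13 CPM in FeSO4. It does not depend on which copy a counted read was given to, but it still lacks reads with more than 1 alignment. Both FeSO4 libraries were above both Mock libraries in this sum.

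Ly6d had 47 and 13 reads in Mock and 0 and 8 reads in FeSO4, at 1.16 and 0.311 CPM against 0 and 0.216 CPM. The Mock libraries were the higher ones, and Mock replicate 1 was far above Mock replicate 2. The log2 fold change of -2.66 ± 0.93 (SE) became -1.45 without Mock replicate 1.

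Ly6k had 7 and 20 reads in Mock and 21 and 25 reads in FeSO4, at 0.173 and 0.478 CPM against 0.613 and 0.675 CPM. The FeSO4 libraries were above the Mock libraries, by 1 read in the closest case, and the log2 fold change was 0.97 ± 0.60 (SE). It was 0.42 without Mock replicate 1 and 1.88 without Mock replicate 2. Ly6k overlaps an antisense transcript, Gm17189, which had 0 reads in every library.

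The last 2 genes did not pass the filter on low counts. Ly6i had 4 and 0 reads in Mock and 9 and 17 reads in FeSO4, and Ly6f had 0 reads in every library, which allows up to the limit given above. The plot of levels by library shows the tight pairs of Ly6a and Ly6e beside the wide Mock pairs of Ly6c1 and Ly6d.

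**Figure D2:**
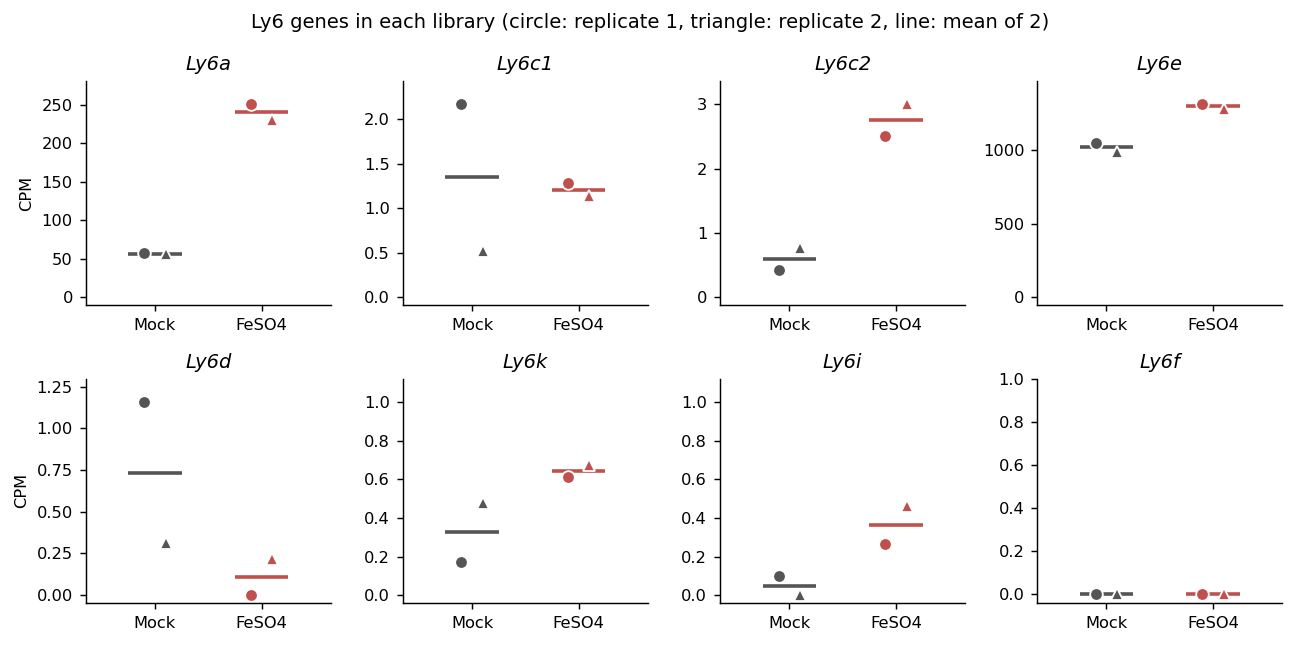
Level of each Ly6 gene in CPM on a linear axis of its own (y) in the Mock and FeSO4 libraries (x); circles are replicate 1, triangles replicate 2 and lines the mean of 2 libraries. Ly6a, Ly6c2 and Ly6e are higher in both FeSO4 libraries, whereas Mock replicate 1 is the highest library for Ly6c1 and Ly6d.

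Thus 7 of the 8 genes had reads and 6 passed the filter. In edgeR's quasi-likelihood test with Benjamini-Hochberg adjustment, 20.0% of all tested genes were called, 10.9% as higher and 9.17% as lower in FeSO4, and of the 6 genes Ly6a, Ly6c2 and Ly6e were called higher and 0 lower. Groups did not overlap for 59.5% of tested genes, with FeSO4 above Mock for 30.1%. Among the 6 genes FeSO4 was above Mock for Ly6a, Ly6c2, Ly6e and Ly6k and below it for Ly6d. As the genes were chosen on this comparison, nothing is read from these counts.

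Ly6a, Ly6c2 and Ly6e stayed higher in FeSO4 under each of 13 alternatives of tool, scaling, filter, replicate block or left-out library. As they were chosen on this comparison, this shows only how far the values depend on the setting and lends no support. The log2 fold change ranged from 2.02 to 2.14 for Ly6a, from 1.84 to 2.71 for Ly6c2 and from 0.28 to 0.38 for Ly6e. Ly6k was called in 0 of 12 alternatives and Ly6d in 5 of 12, so the call of Ly6d depended on the setting. Among these alternatives, DESeq2 gave neither gene an adjusted p and so could not call either. Ly6c1 was called in 0 of 13. The plot of fold changes by setting shows how much wider the left-out-library values spread for Ly6c1, Ly6d and Ly6k than for Ly6a and Ly6e.

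**Figure D3:**
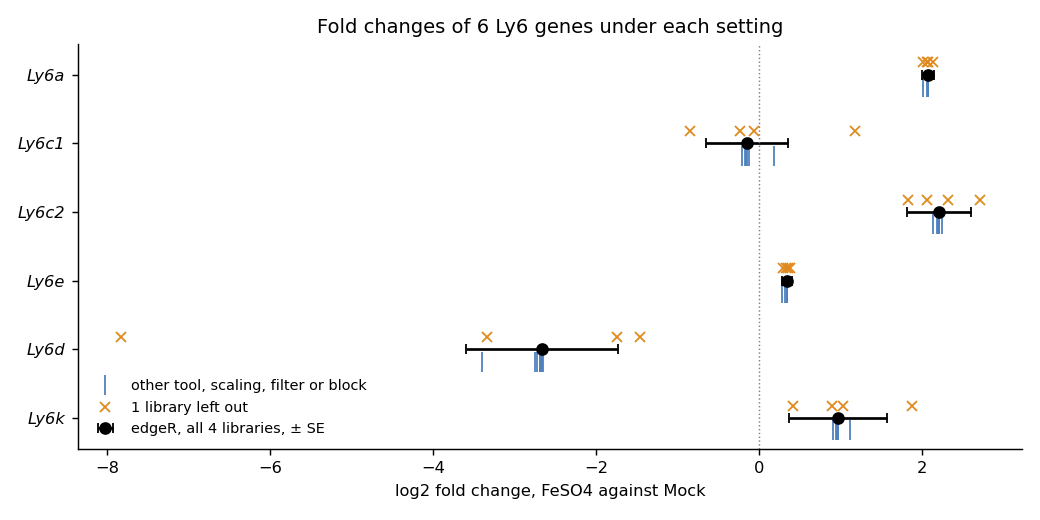
Log2 fold change of FeSO4 against Mock (x, linear axis in log2 units) for the 6 Ly6 genes that passed the filter (y). Black points are edgeR values on all 4 libraries with SE bars, blue ticks other tools, scalings, filters or the replicate block, and orange crosses 1 library left out; the crosses of Ly6c1 lie on both sides of 0, from -0.84 to 1.18.

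Levels of different genes were compared per kilobase of exon (RPKM). In Mock, Ly6e had 444 RPKM, Ly6a 69.5, Ly6c1 1.604, Ly6d 1.06, Ly6c2 0.744, Ly6k 0.393, Ly6i 0.0561 and Ly6f 0. Ly6e, Ly6a and the rest were separated by more than the spread of the libraries, but from Ly6c1 down to Ly6k the neighbours in this order overlapped. In FeSO4, Ly6e had 565 RPKM, Ly6a 294, Ly6c2 3.46, Ly6c1 1.44, Ly6k 0.777, Ly6i 0.411, Ly6d 0.156 and Ly6f 0. There the libraries of neighbouring genes did not overlap down to Ly6i, while Ly6d overlapped with both of its neighbours. By the means, Ly6c2 stood in place 5 in Mock and place 3 in FeSO4, and Ly6d in place 4 and place 7. These Mock places rested on Mock replicate 1. In Mock replicate 2 alone, Ly6c2 had 0.961 RPKM, Ly6c1 0.626, Ly6k 0.577 and Ly6d 0.450, so that Ly6c2 was already in place 3.

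Ly6e and Ly6a together made up nearly all reads of the 8 genes. Ly6a contributed 5.14% of these reads (4.94 to 5.35) and 5.38% (5.17 to 5.60) in the Mock libraries, and 16.0% (15.7 to 16.3) and 15.1% (14.8 to 15.4) in the FeSO4 libraries. These shares, which do not depend on scaling between libraries, did not overlap between the groups. The share of Ly6e was 94.5% and 94.4% in Mock and 83.7% and 84.5% in FeSO4.

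Markers of other cells that carry Ly6 antigens were examined beside these values. The 8 neutrophil markers summed to 2.34 and 1.10 CPM in Mock against 0.234 and 0.081 CPM in FeSO4, with Retnlg and Mmp8 at 0 in every library. Outside Mock replicate 1 this sum was mostly Ltf, the lactoferrin gene, which had 53 and 45 reads in Mock and 7 and 2 in FeSO4. The 8 monocyte and macrophage markers summed to 8.43 and 4.50 CPM in Mock against 3.59 and 4.78 CPM in FeSO4. Outside Mock replicate 1 this sum was mostly Ms4a6c, at 3.63 CPM in Mock replicate 2 and 2.89 and 3.86 CPM in FeSO4. In Mock replicate 1, Ms4a6c had 3.80 CPM and Lyz2 4.04 CPM. Csf1r, Cd14, Itgam and Fcgr1 had at most 7 reads in any library. The 6 B and plasma cell markers summed to 5.37 and 2.85 CPM in Mock against 2.83 and 2.67 CPM in FeSO4. These sums were highest in Mock replicate 1, the library in which Ly6c1 and Ly6d were also highest. Their part in the values of Ly6c1 and Ly6d was not tested. According to the methods, iTreg cultures began from naive CD4 T cells that had been purified with an isolation kit.

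Beside Ly6a and Ly6c2, which were higher in FeSO4, some marker sums were lower in FeSO4 and others higher. The neutrophil sum was lower in both FeSO4 libraries, and the progenitor sum was 162 and 181 CPM in Mock against 84.8 and 89.7 CPM in FeSO4. Nearly all of the latter sum was Kit, the receptor of stem cell factor, with Mpo at 0 in every library and Cd34 at 1, 1, 0 and 0 reads. The 6 endothelial markers, of which Tek was at 0, summed to 53.7 and 59.8 CPM in Mock against 42.2 and 49.0 CPM in FeSO4, and Pecam1 made up most of this. The plasmacytoid dendritic cell sum was higher in FeSO4, at 56.1 and 49.3 CPM against 37.5 and 38.6 CPM, of which the interferon-induced gene Bst2 made up 45.6 and 37.2 CPM against 25.1 and 24.0 CPM, while Siglech had 1 read in Mock replicate 1 and 0 in the others. The sum of Cd8a and Cd8b1, markers of CD8 T cells, was 9.81 and 9.04 CPM in Mock against 9.95 and 11.02 CPM in FeSO4, and neither gene was called. The erythroid sum, over 3 markers with an ID of 5 listed, was 24.9 and 19.8 CPM in Mock against 37.6 and 32.6 CPM in FeSO4. Nearly all of it was the haemoglobin gene Hba-a1, which rose (log2 fold change 0.66 ± 0.12, edgeR adjusted p = 0.000731), while Alas2 had at most 16 reads in any library. The part of these cells in the values of Ly6a and Ly6c2 was not tested.

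Genes whose profile over the 4 libraries was most like that of a Ly6 gene were found by the Euclidean distance of centred log2 CPM among genes that averaged 10 CPM or more. With 2 libraries per group this distance mostly reflects the size of the group difference. Nearest to Ly6a were Gbp2, an interferon-induced guanylate-binding GTPase, at a distance of 0.226, and Gpr15, a homing receptor of T cells for the large intestine, at 0.315. Scd1 and Scd2, desaturases of fatty acid synthesis, followed at 0.342 and 0.402, with the fucosyltransferase Fut4 between them at 0.347. The log2 fold changes of these 5 genes ran from 1.73 (Scd2) to 2.03 (Gbp2), beside 2.08 for Ly6a.

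Nearest to Ly6c2 were Aldoc, a glycolytic aldolase, at a distance of 0.187, Gpr15 at 0.362 and the asparagine synthetase Asns at 0.391. Nearest to Ly6e were the adaptor gene Grap at 0.00171 and the ribosomal protein genes Rps20 at 0.00983 and Rps27a at 0.0105. Ly6k was nearest to Gm4070 at 0.357, the glycogen phosphorylase Pygl at 0.537 and the guanylate-binding protein gene Gbp3 at 0.574. Among genes of at least 10 CPM, Ly6d and Ly6c1 had no close neighbour, and genes at their own low level were not candidates. The nearest were Sox4 at 2.05, Folr4 (Izumo1r) at 2.09 and Whrn at 2.29 for Ly6d. For Ly6c1 they were ENSMUSG00000096768 at 0.837, Ppapdc1b at 0.86 and Prss16 at 0.874.

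Most genes of the wider Ly6/uPAR superfamily, which shares the fold, did not pass the filter on low counts. Of 36 listed genes 32 had an ID, 18 had reads and 5 were tested, of which 0 were called higher and 2 lower (40% of the 5, beside 20.0% of all tested genes), with a median log2 fold change of -0.41 beside -0.00052 over all tested genes. Lynx1, a modulator of nicotinic acetylcholine receptors that lies next to the cluster, fell from 6.88 and 6.48 CPM in Mock to 3.77 and 4.43 CPM in FeSO4 (log2 fold change -0.70 ± 0.21, edgeR quasi-likelihood test, adjusted p = 0.0237). The other call, of Lypd8, a protein of the colon epithelium, rested on 1 library, with 1449 reads in Mock replicate 1 against 2 in Mock replicate 2 and 6 and 15 in FeSO4. Without Mock replicate 1, 0 of these genes were called lower in the edgeR test, and without Mock replicate 2 or FeSO4 replicate 1 the count was 1.

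Ly6g5b, with 11.1 and 10.2 CPM in Mock against 7.36 and 8.65 CPM in FeSO4, was the most abundant of the tested genes of this list outside Mock replicate 1 and was not called (log2 fold change -0.41 ± 0.16). Plaur, the urokinase receptor, was at 1.63 and 1.58 CPM in Mock against 2.71 and 2.40 CPM in FeSO4 and was not called either. Ly6g, the neutrophil antigen encoded inside the cluster, had 25 reads in Mock replicate 1 and 1, 1 and 0 in the others. In all, 9 further genes lie inside the cluster, of which 4 had reads, none above 31 in any library, and 0 were tested. Within 200 kb on either side lie 12 genes, of which 4 were tested and only Lynx1 was called.

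The GPI anchor list held genes for making and attaching the anchor and some that act on it after attachment, among them Pgap6. Of its 32 genes 31 were tested, with 2 called higher, 3 called lower and a median log2 fold change of -0.12. These 5 calls made up 16.1% of the tested genes of the list, beside 20.0% of all genes. Pigu, a subunit of the transamidase that attaches the anchor, rose from 28.6 and 29.3 CPM to 38.7 and 36.1 CPM (log2 fold change 0.37 ± 0.09, edgeR adjusted p = 0.0104). Pigz, a mannosyltransferase of the pathway, fell from 27.0 and 31.3 CPM to 20.7 and 22.6 CPM (-0.43 ± 0.11, edgeR adjusted p = 0.0110), and Pgap6 fell from 19.5 and 17.4 CPM to 10.8 and 9.40 CPM (-0.87 ± 0.14, edgeR adjusted p = 0.000306). The other calls were Pigp at 0.45 and Pigyl at -0.36 on the log2 scale. Calls in this list were few and depended on single libraries, with 0 higher without Mock replicate 1, 1 higher without any of the other 3 libraries, and 1 lower without Mock replicate 2 or FeSO4 replicate 1.

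Of other GPI-anchored proteins of T cells, 17 of 25 listed genes were tested, with 5 called higher, 3 called lower and a median log2 fold change of -0.05. This was 47.1% of the tested genes of the list, beside 20.0% of all. Sema7a, a semaphorin, rose from 31.2 and 44.3 CPM to 91.9 and 100.2 CPM (log2 fold change 1.35 ± 0.11, edgeR adjusted p = 5.05e-07). Bst2, the antiviral protein tetherin, rose by 0.75 ± 0.11 (edgeR adjusted p = 0.000109). Nt5e (CD73), which makes adenosine, fell by 0.46 ± 0.07, and Izumo1r (folate receptor 4), an antigen of regulatory T cells, fell by 1.08 ± 0.19 (edgeR adjusted p = 0.000278 and 0.00079).

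The other genes of that list that were called higher had smaller differences. Cd48 rose by 0.27, Cd52 by 0.21 and Prnp by 0.19 on the log2 scale, and Thy1, at 1872 and 1805 CPM in Mock against 1948 and 1857 CPM in FeSO4, was not called (0.05 ± 0.06). The remaining call was Art2b, with 31 and 13 reads in Mock and 0 and 1 in FeSO4. Without FeSO4 replicate 2, 2 genes of this list were called higher in place of 5.

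Interferon is a known inducer of Ly6a, and the cultures held an antibody against IFN-γ. Of 31 listed genes for interferon receptors, STAT and IRF factors and feedback genes, 30 were tested, with 7 called higher, 2 called lower and a median log2 fold change of 0.10. The share called was 30% in the list and 20.0% over all genes. The transcription factor genes Irf1 and Irf8 rose by 0.67 ± 0.08 and 0.79 ± 0.10 (edgeR adjusted p = 2.56e-05 and 4.5e-05). Ifng itself rose from 2.61 and 3.32 CPM to 11.2 and 8.08 CPM (1.69 ± 0.23, edgeR adjusted p = 6.56e-05).

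Further increases in that list included Nlrc5 (0.45), Irf7 (0.41) and Ifit1 (1.66, at 0.246 and 0.693 CPM in Mock against 1.98 and 1.05 CPM in FeSO4), and the decreases were Jak1 (-0.21) and Irf5 (-0.37). The remaining 21 tested genes, among them Isg15 at 0.68 ± 0.43 and Ciita at -0.02 ± 0.35, were not called. The count of lower genes was 1 without Mock replicate 1 or either FeSO4 library and 0 without Mock replicate 2.

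T cell activation and memory markers moved in both directions. Of 25 listed genes 24 were tested, with 8 called higher, 7 called lower and a median log2 fold change of -0.00047, so that 62.5% were called beside 20.0% of all tested genes. The costimulatory receptor gene Icos rose by 0.61 ± 0.07, Nr4a1, an early target of T cell receptor signals, by 0.81 ± 0.10, and the IL-7 receptor gene Il7r by 0.79 ± 0.11 (edgeR adjusted p = 7.21e-06, 2.73e-05 and 0.000109). Cd27, a receptor of the TNF receptor family, fell by 0.72 ± 0.10 (edgeR adjusted p = 7.26e-05). Without Mock replicate 2 the counts were 5 higher and 4 lower, without FeSO4 replicate 2 they included 5 higher, and without FeSO4 replicate 1 they included 4 lower. The plot of all lists sets these values beside those of the Ly6 genes. Among all genes drawn, only Ly6a and Ly6c2 had a log2 fold change above 2. Lypd8 (-5.90), Art2b (-4.96) and Ly6d (-2.66) differed by more than this in the other direction.

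**Figure D4:**
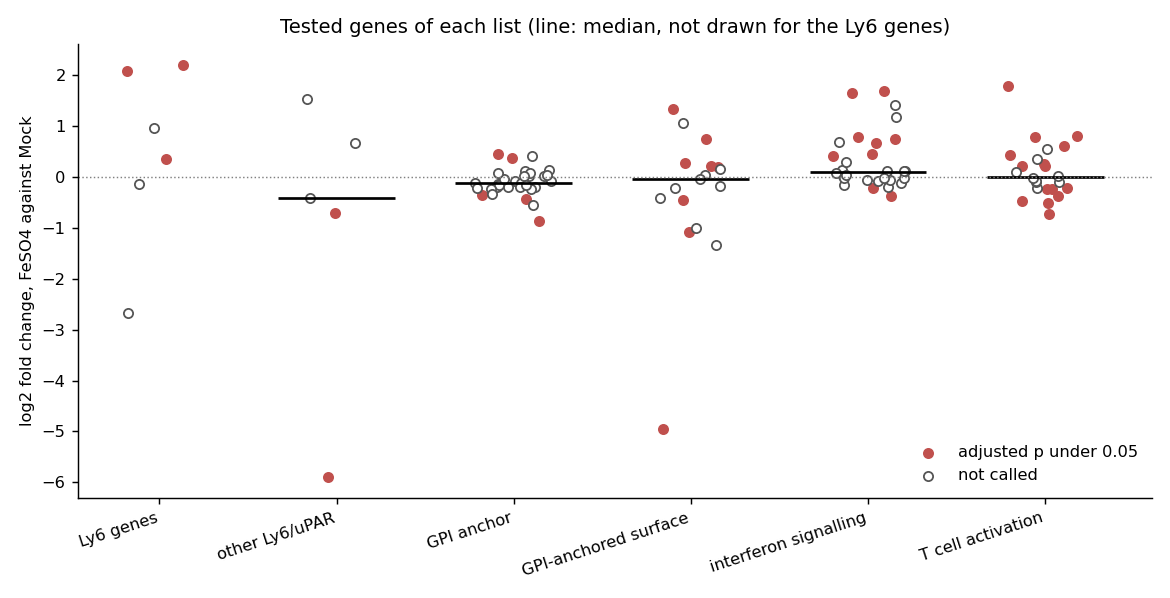
Log2 fold change of FeSO4 against Mock (y, linear axis in log2 units) of each tested gene in the Ly6 group and in 5 lists (x). Filled red points were called at an adjusted p under 0.05, open points were not, and black lines are list medians, from -0.41 for the other Ly6/uPAR genes to 0.10 for interferon signalling.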

How the data were processed

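RNA libraries of 4 iTreg cultures (2 Mock, 2 FeSO4) were analysed, grouped by their labels. The authors deposited raw read counts per Ensembl gene, not normalized, in 1 table whose columns name the samples (0 columns of other samples). The submitters' processing notes name Trim Galore 0.6.7, STAR 2.7.9a, featureCounts and mm10, whereas the methods name STAR and mm9. Strand setting, annotation and read length are not given in the sources used here. The last 5 rows hold reads without a gene, named as htseq-count names them: no feature (4.36 to 6.03% of a library), ambiguous (3.78 to 3.91%), low quality (0.802 to 0.988%), unaligned (1.8 to 2.31%) and more than 1 alignment (4.27 to 4.62%). Neither library sizes nor tests include them.

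Symbols were matched by Ensembl ID (32799 of 47729; the others held 0.755% of counts). Of the IDs, 14889 lie beyond the last of GENCODE M1. Gene positions and upstream windows are RefSeq's for GRCm38, and transcripts, exon lengths for RPKM and repeated stretches are from GENCODE M1 (NCBIM37), searched with BLAST 2.17.0. Ly6c1, Ly6c2 and Ly6f had upstream windows.

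Counts were fitted in R 4.3.3 with edgeR 4.0.16: filterByExpr by group (13732 genes), TMM scaling and the quasi-likelihood F test of FeSO4 against Mock without a block, as the methods state none, with Benjamini-Hochberg adjustment over all tested genes and calls at an adjusted p under 0.05. CPM uses TMM-scaled library sizes. The fit was run on data simulated from its own model, which checks the code and not how well the model suits these libraries. Chi-square per degree of freedom between replicates was 8.85 in Mock and 7.25 in FeSO4, so neither pair was within sampling noise. Reads carried no stated molecular identifiers, so exact binomial intervals (95%) and limits of a count of 0 cover counting error only. Alternatives used DESeq2 1.42.0, limma-voom (limma 3.58.1), other scalings and filters, the replicate block and each library left out. The members and lists were chosen with earlier results of these data known. Named are the 8 members, the 5 genes nearest in profile to Ly6a and the 3 nearest to each other tested member (log2 CPM with a prior count of 2), and per list the called genes of smallest p. Other genes named were chosen after their values were seen. A few members of the lists are not reported here.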

Additional observations from a re-analysis of the deposited data

How the results depend on the processing

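Ly6c1, Ly6c2, Ly6d, Ly6k and Ly6i had at most 111 reads in any of the 4 libraries, and their counting error is larger, relative to the level, than that of Ly6a and Ly6e. No alternative turned the direction of Ly6a, Ly6c2, Ly6e, Ly6d or Ly6k. Ly6c1 turned from a log2 fold change of -0.15 to 0.18 with limma-voom and ranged from -0.84 to 1.18 with a library left out (1.18 without Mock replicate 1), and the cause was not tested. Ly6d was called with DESeq2 size factors (-2.67), library size only (-2.73), the replicate block (-2.64), and without Mock replicate 2 (-3.33) or FeSO4 replicate 2 (-7.83, which leaves the FeSO4 library with 0 reads). Exon lengths from the longest transcript left the order of mean levels within each group as given, and swapped Ly6d and Ly6k (2 places) in an order over all 4 libraries. The edgeR legacy test, an alternative added after seeing the data, left every count of calls within 1.5 times.

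Over all genes, library size only gave 980 higher and 1810 lower (35.1% higher, against 54.2% of 1491 and 1259) and shifted the median log2 fold change to -0.07. Testing 22164 genes without a filter gave 524 and 304. Leaving out 1 library gave 926 to 1155 higher and 751 to 1060 lower, the fewest without Mock replicate 2, and 822 lower without FeSO4 replicate 1. The labels do not say whether the replicate numbers mark the 2 experiments, and the replicate block gave 1847 higher and 1580 lower (r = 0.22 between the deviations of replicate 1 in Mock and FeSO4, over 8522 genes).

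Among the other Ly6/uPAR genes, calls of lower genes numbered 1 with DESeq2, limma-voom or at least 10 counts per library, 0 without a filter and 0 to 2 with a library left out. For the GPI anchor genes, 1 was higher with DESeq2, limma-voom, upper quartile or library size only, 0 without a filter and 0 to 1 with a library left out, and 5 were lower with library size only or the replicate block, 1 without a filter and 1 to 3 with a library left out. For the other GPI-anchored proteins, 3 were higher with upper quartile or library size only and 2 without a filter, and 1 was lower with DESeq2 or without a filter, with 2 to 4 higher and 2 to 4 lower when a library was left out. In the interferon list, 4 were higher and 0 lower without a filter, 4 lower with library size only, and 5 to 7 higher and 0 to 1 lower with a library left out. In the activation list, 4 were higher and 1 lower without a filter, and 5 to 8 higher and 4 to 8 lower with a library left out.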
